A study of Mus musculus with 21 samples.

Results

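This account concerns how the heart's response to tamoxifen depended on the number of injections in mice that carry an inducible cardiac Cre. The comparison used the 12 arrays of Tg(αMHC-MerCreMer) mice out of 21 arrays in the series, with 3 arrays in each of 4 groups: 1 control injection, 1 tamoxifen injection, 4 control injections and 4 tamoxifen injections. Tamoxifen was given intraperitoneally at 40 mg/kg per day, on 1 day or on 4 consecutive days, and left ventricular myocardium was taken 4 days after treatment from animals aged 9 to 13 weeks. What the control injections contained is not given in the sources used here. All 12 samples came from mice with the transgene, and each group held 1 array labelled male and 2 labelled female. Values are log2 expression on whole-transcript arrays. The quantity of interest was the interaction: the tamoxifen minus control difference after 4 injections, less the same difference after 1 injection. The other 9 arrays, from wild-type mice after 4 control injections (6 arrays) or 4 tamoxifen injections (3 arrays), served only to show what 4 injections did without the transgene. Number of injections, total dose and time since the first injection varied together in this design and cannot be told apart.

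The MerCreMer protein is a Cre recombinase flanked by mutated oestrogen receptor ligand-binding domains. It stays in the cytoplasm until tamoxifen or its metabolites bind, and it then enters the nucleus and recombines loxP sites. The α-myosin heavy chain promoter restricts it to cardiomyocytes, so a change in another cell type of the ventricle lies outside the cells that make Cre. The labels name no floxed allele in these mice. Active Cre in the nucleus is known to cut loxP-like genomic sequences at low efficiency, and repeated tamoxifen in this line is known for a transient loss of contractile function. These are background facts and not results of the arrays.

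The labels name left ventricle, and cardiomyocyte markers were high on each of the 12 MerCreMer arrays. Each of the 16 cardiomyocyte markers was well above the level filter used here (a log2 value of 5), and Myh6, the gene whose promoter drives the transgene, read 12.38 to 12.73 on the 12 MerCreMer arrays. The arrays after 4 tamoxifen injections stood apart from the rest. Their mean variance per gene was 0.124, against 0.0221 to 0.0270 in the other 3 groups, they correlated with each other at 0.914 to 0.973 where the other groups did not go below 0.984, and the first principal component, with 54.6% of the variance, separated them from the other 9 arrays. Replicate 3 of that group lay farthest out and went against its label: it is labelled female, yet Xist, the RNA of the inactive X chromosome, read 3.12 on it and 7.46 to 8.03 on the other 7 arrays labelled female. The Y-linked gene Uty read 2.54 on this array, within the range of the arrays labelled female, and 6.56 to 7.11 on those labelled male. Median interactions of gene lists that move by over 1.5 times without 4 tamoxifen replicate 3 are therefore also given without it ("without replicate 3"). The same holds for replicates 1 and 2 of that group. Interactions of single genes are not given that way and can move as much. All 4 groups share 1 estimate of the spread. The test of the 4-injection effect alone therefore understates its spread, and that of the 1-injection effect overstates it. The interaction weighs the 4 groups equally, but most of its spread comes from the 4 tamoxifen group. Its test counts the degrees of freedom of all 4 groups, so its p values can be too small.

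The response after 4 injections differed from that after 1 injection for 116 of 11100 genes tested, which is 1.05% (adjusted p under 0.05, limma with Benjamini-Hochberg adjustment). Of these, 77 were lower after 4 injections (0.694% of genes tested) and 39 were higher (0.351%), and 62 differed by at least 1 on the log2 scale. At an unadjusted p under 0.05 the count was 1683 genes, 15.2%. For 114 of the 116, the 3 arrays after 4 tamoxifen injections all lay outside the range of the other 9 MerCreMer arrays. Over all genes tested they lay above that range in 10.2% and below it in 5.93%. The 116 genes were called on these same arrays, so their high share follows in part from that choice. All 116 were also called in the test of 4 injections alone and 0 in that of 1 injection. None of the 116 was called for 4 tamoxifen injections in wild-type mice, a comparison that called 0 genes in all.

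Most calls did not hold in every fit with 1 array left out. All 116 genes kept their sign under each of the 26 alternative settings, but 100 lost the call when 1 of the 12 arrays was left out. Without replicate 3 the count rose to 364 genes, which included 115 of the 116. Within the same group, leaving out replicate 2 gave 486 genes and leaving out replicate 1 gave 125. The count was 17 to 27 without any 1 array of the other 3 groups. The call held in all 12 of these fits for 15 genes, of which 14 were lower (Fhod3, Cacna1c, Fgf13, Itgb6, Pde3a, Dip2c, Sgcd, Akap6, Arhgap26, Limch1, Camk2d, Garem1, Lrrc2 and Nfia) and 1 was higher (Klhl40).

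Taken alone, 4 tamoxifen injections in MerCreMer mice changed 985 genes, 8.87% of those tested, with 602 higher (5.42%) and 383 lower (3.45%). That split depended on scaling: it was 457 higher and 517 lower when arrays were centred on their median, and 513 and 489 after a second quantile normalisation. After 1 injection 0 genes were called by limma, and 190 (1.71%) had an unadjusted p under 0.05. The difference between 4 and 1 control injections also called 0 genes, with 184 (1.66%) at an unadjusted p under 0.05. The 4 and 1 tamoxifen groups compared with each other gave 847 genes, 7.63%, of which 480 were higher (4.32%) and 367 lower (3.31%) after 4 injections. Between genotypes, the 4-injection effect differed for 929 genes, 8.37%, a comparison that shares arrays with those above.

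The 1-injection arrays showed little of the 4-injection response at the median. The 4-injection and 1-injection effects come from separate arrays, so the genes called after 4 injections can be read in the 1-injection arrays without reuse of samples, apart from the shared estimate of spread. Among those 985 genes the median size of the 4-injection effect was 0.60 on the log2 scale, and the median 1-injection effect in the same direction was 0.01, a median of 1.48% of the 4-injection effect. The value differed by direction: it was 7.28% for the 602 higher genes, of which 414 had the same sign after 1 injection, and -5.45% for the 383 lower genes, of which 119 did. In 98 of the 985 the 1-injection estimate reached 25% of the 4-injection effect. The 1-injection effect had the same sign in 54.1% of the 985 genes and in 52.0% of all genes tested, and Pearson's r between the effects across genes was 0.07 and 0.06. Genes are not independent replicates, and these values describe the arrays. In 0 of the 985 genes was the 1-injection effect as large as the 4-injection effect.

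The 95% confidence intervals of the 1-injection effects limit what could be read from them. They rest on the spread shared by all 4 groups, which on average overstates that of the 1-injection arrays. The mean variance per gene was 0.0270 and 0.0226 in the 1 control and 1 tamoxifen groups and 0.124 after 4 tamoxifen injections. The counts below therefore depend on that shared spread. For 521 of the 985 genes (52.9%) the interval excluded an effect of 50% of that after 4 injections in the same direction. An effect of 25%, the share that 1 of 4 equal steps would give, was excluded for 108 genes, of which 88 were among the 383 lower genes and 20 among the 602 higher genes. In the other direction, the interval lay above 0 on the side of the 4-injection effect for 15 of the 985 genes, and above 25% of that effect for 3: Cyria and Cyfip2, which belong to the actin-regulating WAVE pathway, and Rtn4rl1, a Nogo receptor homologue. Their 1-injection and 4-injection effects were 0.37 and 0.57 for Cyria, -0.74 and -0.80 for Cyfip2, and 0.55 and 0.63 for Rtn4rl1. None of the 3 was called after 1 injection, and they were chosen after their values were seen. The genes were chosen for a large 4-injection effect, which makes that effect look larger than it is.

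**Figure D1:**
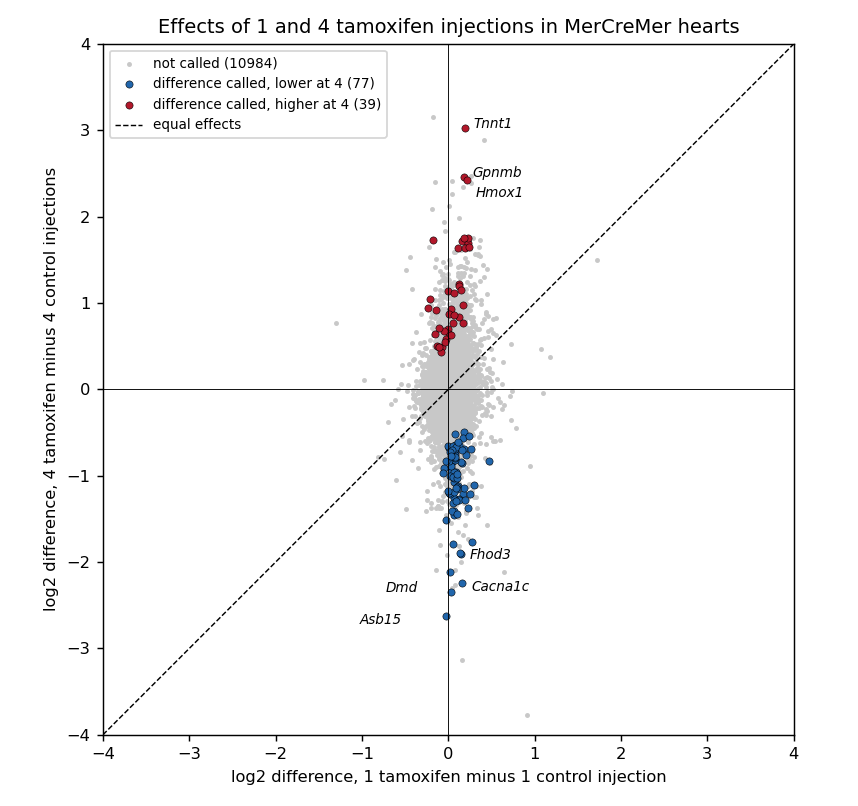
Each point is 1 of 11100 genes, with the log2 difference of 1 tamoxifen minus 1 control injection on the x axis and of 4 tamoxifen minus 4 control injections on the y axis, 3 arrays per group. The 77 genes called lower and 39 called higher for the difference between them are coloured, and they lie far from the dashed line of equal effects, with 1-injection effects between -0.23 and 0.47.

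Fhod3, a formin that maintains actin thin filaments in the sarcomere, had the smallest adjusted p of the interaction. Its log2 values on replicates 1 to 3 were 9.23, 9.28 and 9.26 after 1 control injection, 9.42, 9.40 and 9.39 after 1 tamoxifen injection, 9.32, 9.32 and 9.32 after 4 control injections, and 7.36, 7.47 and 7.40 after 4 tamoxifen injections. The 3 arrays after 4 tamoxifen injections lay far below the other 9, and the 3 arrays after 1 tamoxifen injection lay slightly above all 6 control arrays. The 4-injection effect was -1.91, which left 26.6% of the control level, and the 1-injection effect was 0.14. The interaction was -2.05 (SE 0.102, adjusted p = 9.95e-06, limma), and the wild-type effect of 4 injections was -0.05.

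Calcium and sodium currents of the cardiomyocyte were next. Cacna1c, the pore-forming subunit of the L-type calcium channel that triggers contraction, read 9.40, 9.53 and 9.47 after 1 control, 9.54, 9.67 and 9.68 after 1 tamoxifen, 9.62, 9.47 and 9.58 after 4 control and 7.52, 7.33 and 7.11 after 4 tamoxifen injections. No array after 1 tamoxifen injection was below the lowest control array, and the interaction was -2.40 (SE 0.154, adjusted p = 7.13e-05, limma). Its 1-injection effect was 0.16 with a 95% confidence interval of -0.08 to 0.41, against a 4-injection effect of -2.24. Fgf13, an intracellular fibroblast growth factor homologue that binds voltage-gated sodium channels, read 7.28, 7.71 and 7.49, then 7.49, 7.49 and 7.57, then 7.56, 7.52 and 7.56, and finally 5.31, 5.62 and 5.37 in the same order of groups. The groups other than 4 tamoxifen injections overlapped, and the interaction was -2.13 (SE 0.151, adjusted p = 1.30e-04, limma).

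Of 36 tested genes of calcium handling and ion channels, 5 were called lower for the interaction (0.694% of all genes tested were) and 0 higher, and the median interaction was -0.73, against 0.01 over all genes tested. The median of the list was -0.41 without replicate 3. The other 3 called members were Camk2d, the calmodulin-dependent kinase of the cardiac calcium cycle (-1.22, called without any 1 of the 12 arrays), Slc8a1, the sodium-calcium exchanger (-1.61), and Kcnq1, a potassium channel of repolarisation (-0.73). The list's median 1-injection effect was 0.04 and its median 4-injection effect -0.56. Members of the same machinery gave different values: Ryr2, through which stored calcium leaves the sarcoplasmic reticulum, had an interaction of -1.39 (adjusted p = 0.117, limma), with levels of 10.78, 10.15 and 9.31 after 4 tamoxifen injections against 11.32 to 11.49 on the other 9 arrays. Atp2a2, the calcium pump that refills that store, had -0.08 (adjusted p = 0.743) and Pln, its inhibitor, -0.80 (adjusted p = 0.226).

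**Figure D2:**
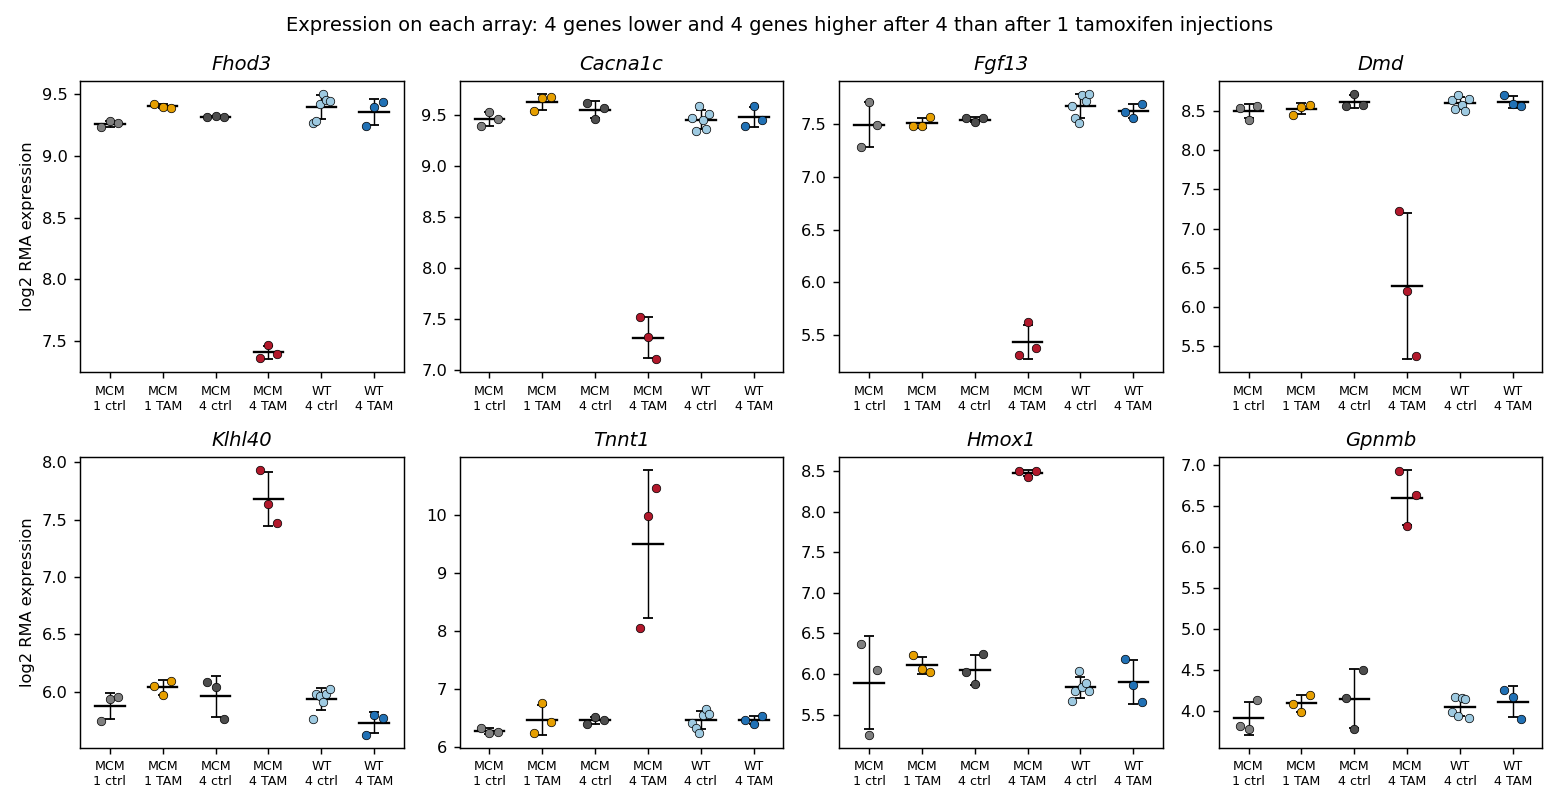
Log2 expression of 4 genes called lower and 4 called higher for the difference between 4 and 1 injections, on each of 21 arrays, by group (MCM, Tg(αMHC-MerCreMer); WT, wild type; ctrl, control; TAM, tamoxifen; numbers are injections). Points are arrays, bars the group mean and SD, and axes do not start at 0; the 3 MCM 4 TAM arrays lie outside the other 18 for all 8 genes, and the 1 TAM arrays lie at or near the controls.

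Of 23 tested genes of the dystrophin complex and the intercalated disc, 3 were called lower and 0 higher, with a median interaction of -0.21. Over all genes tested the shares called were 0.694% lower and 0.351% higher. Dmd encodes dystrophin, which links actin to the membrane complex. It read 8.54, 8.39 and 8.56 after 1 control, 8.45, 8.55 and 8.58 after 1 tamoxifen, 8.56, 8.71 and 8.58 after 4 control and 7.23, 6.21 and 5.37 after 4 tamoxifen injections. All 3 of the last arrays were lower, but replicate 3 lay well below replicate 1, and the adjusted p of the interaction (-2.38, SE 0.444) was 0.0396. Sgcd, a sarcoglycan of the same complex, fell with less spread (interaction -1.45, adjusted p = 0.00888, limma), and Ctnna3, the αT-catenin of the intercalated disc, had an interaction of -2.04 (adjusted p = 0.0403). In the list of the extracellular matrix, Lama2, the laminin chain that dystroglycan binds, was the only called gene of 49 tested (-0.80). Lama2 went against that list, in which 38 genes had a positive and 11 a negative interaction. The median of the matrix list was 0.39, or 0.08 without replicate 3.

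Sarcomeric genes as a list did not follow Fhod3. It was the only called gene among 29 tested sarcomere and Z-disc genes, whose median interaction was -0.08 (-0.20 without replicate 2 and -0.03 without replicate 3), and that median changed sign in 1 of the 26 alternative settings. The abundant contractile genes had small interactions: Myh6 -0.08, Tnnt2 -0.05, Actc1 0.06, Mybpc3 -0.04 and Tnnc1 0.06. Ttn, the giant spring protein of the sarcomere, had -0.45, with 10.91, 11.21 and 10.83 after 4 tamoxifen injections and 11.26 to 11.55 on the other 9 arrays. None of these 6 genes was called.

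Muscle ubiquitin ligase adaptors were called lower in 4 of 26 tested members of the list of muscle ubiquitin ligases and autophagy, and 0 were higher, where 0.694% and 0.351% of all genes tested were called (median interaction -0.49, or -0.24 without replicate 3). Asb15, an ankyrin repeat adaptor with a SOCS box, had the most negative interaction of the 77 lower genes, -2.59 (SE 0.48, adjusted p = 0.0391, limma). It read 6.02, 6.07 and 4.49 after 4 tamoxifen injections and 7.98 to 8.36 on the other 9 arrays, with the 3 arrays after 1 tamoxifen injection, at 7.98, 8.09 and 8.30, among the controls. Its relative Asb5 had -1.49, and the kelch and F-box adaptors Klhl31 and Fbxo40 had -0.76 and -1.23. The F-box ligase Fbxo32 and the RING ligase Trim63, the widely used markers of muscle atrophy, had -0.21 and -0.64 and were not called.

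Called genes also encoded signalling proteins and transcription factors. Pde3a, a cyclic nucleotide phosphodiesterase, read 7.76, 7.86 and 7.68 after 4 tamoxifen injections and 8.94 to 9.56 on the other 9 arrays (interaction -1.53, adjusted p = 0.00619, limma). Akap6, which anchors protein kinase A, had -1.39, Erbb4, a neuregulin receptor, -1.55, Chrm2, the muscarinic receptor of the heart, -1.38, and Corin, the protease that processes natriuretic peptide, -1.40. Of 18 tested cardiac transcription factors 2 were called lower, Zfpm2, the GATA cofactor FOG2 (-0.89), and Mef2c (-0.65), and 0 higher. The shares over all genes tested were 0.694% and 0.351%. The list had a median of -0.26 that was -0.04 without replicate 1 and -0.39 without replicate 3. Esrrg, an orphan nuclear receptor that drives mitochondrial genes, was the only called gene of 36 in the list of lipid oxidation and PPARA targets and of 10 in the list of oestrogen receptors and coregulators (-1.02, adjusted p = 0.0392). Itgb6, an integrin subunit (-1.84, adjusted p = 0.00619), and B3galt2, a galactosyltransferase (-2.03, adjusted p = 0.0154), complete the 12 genes with the most negative interaction.

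Promoters of the called genes were searched for sites of muscle and stress factors, since genes that move together may share such letters. RefSeq (GRCm38.p6) gave the 250 bases before at least 1 transcription start for 63 of the 77 lower genes, 31 of the 39 higher genes and 8919 of the genes tested. The CArG box, to which serum response factor binds, occurred on either strand in 6 of the 63 lower genes (9.52%), in 0 of the 31 higher genes and in 1.51% of the 8919. The MEF2 site occurred in 3 lower genes (4.76%), 1 higher gene (3.23%) and 0.662% of all. Among 23 sarcomere genes the shares were 21.7% and 17.4%, so muscle genes outside the called set hold these letters too. The lower genes had 1.59 promoters each to search, against 1.28 for all genes. The 4 promoters shown are those with either motif among the 12 most negative interactions, 5′ to 3′ on the strand of the gene and ending at the base before the start, with the CArG box (Itgb6, Dmd, Asb5) or MEF2 site (Fgf13) in capitals.
Itgb6: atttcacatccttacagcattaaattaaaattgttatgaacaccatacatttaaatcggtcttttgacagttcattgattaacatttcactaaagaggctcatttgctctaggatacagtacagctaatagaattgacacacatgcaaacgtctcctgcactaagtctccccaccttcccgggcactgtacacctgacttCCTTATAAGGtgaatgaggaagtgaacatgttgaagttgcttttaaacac
Dmd: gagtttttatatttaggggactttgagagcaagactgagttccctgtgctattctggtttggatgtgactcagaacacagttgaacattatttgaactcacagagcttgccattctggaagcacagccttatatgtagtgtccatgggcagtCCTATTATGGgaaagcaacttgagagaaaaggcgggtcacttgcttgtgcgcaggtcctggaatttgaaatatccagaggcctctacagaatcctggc
Asb5: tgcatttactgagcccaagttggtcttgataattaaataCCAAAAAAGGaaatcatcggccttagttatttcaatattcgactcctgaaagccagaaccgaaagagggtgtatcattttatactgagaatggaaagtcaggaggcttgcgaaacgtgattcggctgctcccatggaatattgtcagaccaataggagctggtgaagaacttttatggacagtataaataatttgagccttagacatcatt
Fgf13: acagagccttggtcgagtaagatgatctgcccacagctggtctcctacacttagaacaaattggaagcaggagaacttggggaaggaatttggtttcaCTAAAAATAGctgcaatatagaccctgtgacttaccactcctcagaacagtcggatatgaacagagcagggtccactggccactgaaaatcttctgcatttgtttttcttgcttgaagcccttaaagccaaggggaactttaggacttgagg
They lie at chr2:60673694-60673943 (minus strand), chrX:82948620-82948869 (plus), chr8:54550081-54550330 (plus) and chrX:59585573-59585822 (minus). A match is a run of letters and not evidence that a factor binds there.

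The other motifs searched on both strands gave these shares, lower genes first, then higher genes, then all genes tested. AP-1 sites (TGANTCA) were in 14.3%, 3.23% and 5.33%, and heat shock elements (GAANNTTC or TTCNNGAA) in 20.6%, 16.1% and 11.8%. Antioxidant response elements (TGACNNNGC) were in 17.5%, 6.45% and 13.6%, and cyclic AMP response elements (TGACGTCA) in 3.17%, 6.45% and 3.03%. The palindromic oestrogen response element was in 0 lower genes, 0 higher genes and 2 of the 8919. AP-1 and antioxidant motifs can overlap.

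The genes that were lower after 4 injections were long. Their genomic span, from the RefSeq gene table of GRCm38.p6, had a median of 199 kb, against 19.8 kb for the 39 higher genes and 23.2 kb for all genes tested. Of the 77 lower genes 55 (71.4%) spanned at least 100 kb, against 3 of the 39 higher genes (7.69%) and 13.2% of genes tested. Dmd spans 2390 kb, Ctnna3 1574 kb, Erbb4 1077 kb, Cacna1c 610 kb and Fhod3 425 kb. Asb15, at 45.0 kb, and B3galt2, at 9.24 kb, were exceptions.

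The pattern was graded by length and covered genes that were not called. The median interaction was 0.01 for 2890 genes under 10 kb, 0.04 for 3604 genes of 10 to 30 kb and 0.04 for 3129 genes of 30 to 100 kb. The last 2 values were 0.01 and 0.02 without replicate 1. The median was -0.08 for 940 genes of 100 to 200 kb, -0.23 for 371 genes of 200 to 400 kb and -0.31 for 150 genes over 400 kb. The number called lower was 2, 4, 16, 18, 19 and 18 in the same order, a share that ran from 0.0692% in the shortest class to 5.12% in genes of 200 to 400 kb and 18 of 150 over 400 kb, against 0.694% over all genes tested. Over 400 kb, 52 of 150 genes had all 3 arrays after 4 tamoxifen injections below the other 9 and 0 had them above, where all genes gave 5.93% and 10.2%.

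Each array showed the gradient separately. Genes over 400 kb had medians of -0.19, -0.22 and -0.41 relative to the MerCreMer controls on replicates 1 to 3 after 4 tamoxifen injections. After 1 tamoxifen injection the 3 medians were -0.02, 0.03 and 0.04, and in wild-type mice after 4 tamoxifen injections they were 0.05, 0.03 and 0.03. Only the arrays with the transgene and 4 tamoxifen injections left the range of the other arrays, which was -0.06 to 0.06. Without replicate 3 the median interaction of genes over 400 kb was -0.24, and over the alternatives it ran from -0.44 to -0.24.

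The difference between long and short genes was present at each level of expression. Among genes with a mean log2 value of 9 and over, 16 of 85 genes spanning at least 100 kb were called lower (18.8%, median interaction -0.47), against 7 of 873 shorter genes (0.802%, median -0.08). Between 7 and 9 the shares were 5.67% and 0.205%, and under 7 they were 0.862% and 0.150%. Ppargc1a, a coactivator of mitochondrial genes that spans 662 kb and was not called, read 6.69, 7.58 and 6.14 against 7.99 to 8.23 on the other 9 arrays (interaction -1.38, adjusted p = 0.135). Length was read from the annotation and its part in any change was not tested.

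**Figure D3:**
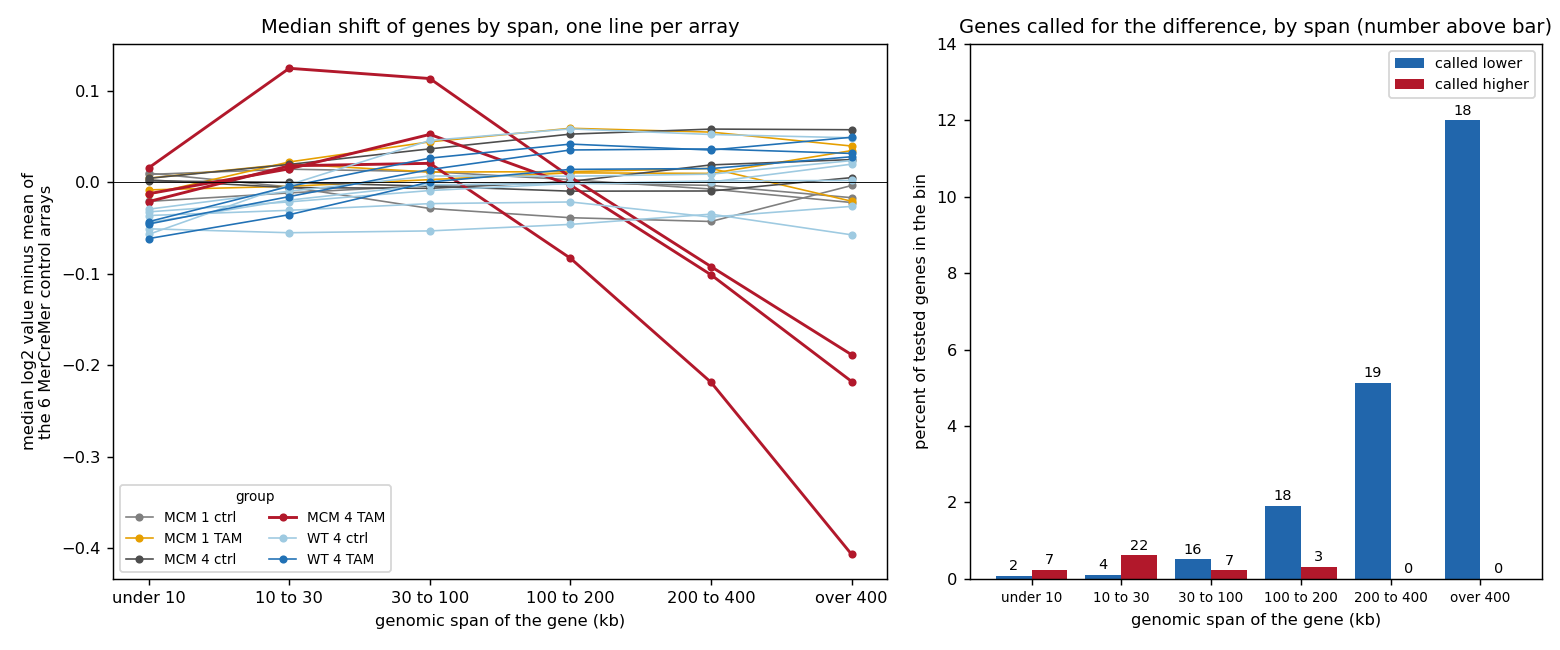
Left, median log2 value of genes in 6 classes of genomic span (kb), minus the mean of the 6 MerCreMer control arrays, with 1 line per array; right, percent of tested genes in each class called lower or higher for the difference between 4 and 1 injections, with their number above the bar. The 3 MerCreMer arrays after 4 tamoxifen injections fall to -0.19, -0.22 and -0.41 over 400 kb, where 18 of 150 genes were called lower and 0 higher.

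Among the 39 higher genes were several of the skeletal muscle and stress programmes. Tnnt1, the slow skeletal troponin T, had the largest interaction, 2.83 (SE 0.55, adjusted p = 0.0423, limma). Its values were 6.34, 6.25 and 6.27 after 1 control, 6.25, 6.76 and 6.44 after 1 tamoxifen, 6.41, 6.52 and 6.48 after 4 control and 8.05, 9.98 and 10.45 after 4 tamoxifen injections, an 8.14-fold rise over the 4 control injections. The last 3 arrays were all above the rest, with replicate 1 well below the other 2. Klhl40, a kelch protein of skeletal muscle thin filaments, was steadier, at 7.93, 7.64 and 7.47 against 5.75 to 6.09 on the other 9 arrays (1.56, SE 0.18, adjusted p = 0.00619), and Mybpc2, the fast skeletal myosin-binding protein C, had 1.57 (adjusted p = 0.0422).

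Tnnt1 and Mybpc2 were the 2 called genes of 20 tested cardiac stress and foetal genes, whose median interaction was 1.03, or 0.45 without replicate 3. Over all genes tested 0.351% were called higher. Natriuretic peptides, the usual markers of ventricular load, were not called: Nppa had 0.86 (adjusted p = 0.483) and Nppb 1.36 (adjusted p = 0.387). Timp1, an inhibitor of matrix proteases, read 6.45, 7.63 and 11.51 after 4 tamoxifen injections and 4.75 to 5.61 on the other 9 arrays. All 3 arrays were above the rest, yet with replicate 3 far from the other 2 the interaction of 3.33 had an adjusted p of 0.276. Other skeletal muscle markers were near background: 4 of 6 were under a log2 value of 5 on all 12 arrays, and Tnnt3, a fast skeletal troponin T, was one of the 2 tested (1.87, adjusted p = 0.0756).

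In the stress response lists, single members were called higher. Hmox1, haem oxygenase, read 6.37, 5.25 and 6.06 after 1 control, 6.23, 6.06 and 6.03 after 1 tamoxifen, 6.03, 5.87 and 6.25 after 4 control and 8.50, 8.43 and 8.50 after 4 tamoxifen injections. The 3 last arrays agree closely and the interaction was 2.22 (SE 0.297, adjusted p = 0.0104, limma). It was the 1 called gene of 31 tested oxidative stress and NRF2 targets (median 0.27), where 0.351% of all genes tested were called higher. Of the 31, 10 had an unadjusted p under 0.05, all higher, where all genes gave 15.2% in either direction. Gclm, Txnrd1 and Srxn1, which make glutathione or reduce thiols, had 0.81, 0.83 and 0.90 and were not called.

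Heat shock and immediate early genes gave 1 of 26 and 2 of 24 called, all higher, where 0.351% of all genes tested were. Hsp90aa1, the inducible cytosolic HSP90, read 10.08, 9.86 and 10.52 after 4 tamoxifen injections and 9.09 to 9.59 on the other 9 arrays (1.18, adjusted p = 0.0403), while the median of the chaperone list was 0.17. Hspa1l, an HSP70 family member outside that list, had 1.52 (adjusted p = 0.0396). Atf3, a stress-induced transcription factor, read 6.53, 6.72 and 7.83 against 4.98 to 5.45 (1.91, adjusted p = 0.0379), and Jund, a subunit of AP-1, had 0.63 (adjusted p = 0.0341) in a list with a median of 0.42, or 0.22 without replicate 3. For Atf3, Jund and Hsp90aa1 the 1-injection effects were -0.18, -0.13 and -0.23, of the opposite sign and not called.

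The remaining genes of the 12 largest positive interactions had varied roles. Gpnmb, a glycoprotein of phagocyte lysosomes, read 6.92, 6.25 and 6.63 after 4 tamoxifen injections and 3.78 to 4.50 on the other 9 arrays (2.27, SE 0.285, adjusted p = 0.00692). It reached the level filter only on the arrays where it was high, so it entered the test because of that difference. In all, 3 called genes, all higher, reached the filter on under 3 of the other 9 arrays, as did 137 of the genes tested. Such genes could enter the test only with the help of the 4 tamoxifen arrays. Scd2, a desaturase of fatty acid synthesis, had 1.40. It was the 1 called gene of 28 in the list of cholesterol and fatty acid synthesis, where 0.351% of all genes tested were called higher. Ndnf, a secreted neurotrophic factor, had 1.46, Olfml2b, an olfactomedin-like extracellular protein, 1.45, Gas2l3, a linker of actin and microtubules, 1.53, and Ankrd45, an ankyrin repeat protein, 1.27.

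Markers of other cells moved with the 4-injection group and are given as measured. All 24 tested macrophage and monocyte markers had a positive interaction (median 0.78, or 0.39 without replicate 3) and 0 were called by limma. Of the 24, 7 had an unadjusted p under 0.05, where all genes gave 15.2% in either direction. The summed linear level of the macrophage and monocyte markers was 2883 to 8599 after 4 tamoxifen injections and 2212 to 2832 on the other 9 MerCreMer arrays. The 11 complement genes had a median of 0.73, or 0.37 without replicate 3, and 0 called. Lyve1, a hyaluronan receptor of lymphatic vessels and some macrophages, was called (0.81, adjusted p = 0.0396, limma). Gpnmb also marks phagocytes, but it passed the level filter only through the arrays where it was high. In bulk tissue, more or fewer cells of a type and more or less RNA per cell cannot be told apart. The part of these cells in the higher genes was not tested.

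No list of cell type markers held a called gene. The 16 cardiomyocyte markers had a median interaction of -0.11 (-0.02 without replicate 3 and -0.19 without replicate 2) and a summed level of 59598 to 76761 after 4 tamoxifen injections, against 76747 to 78663 on the other 9 MerCreMer arrays. The 16 endothelial markers had a median of -0.22 (-0.12 without replicate 3 and -0.34 without replicate 1), with 3590 to 5487 against 4686 to 5316. The 14 fibroblast markers had a median of 0.00, with a summed level of 7181 to 11085 against 6448 to 7731. Their median was 0.01, 0.04 and -0.01 without replicates 1, 2 and 3. The 11 tested smooth muscle and pericyte markers had a median of 0.12. The summed level of that list was 6324 to 8157 after 4 tamoxifen injections, above the 5529 to 6180 of the other 9 arrays. That sum weighs bright genes most. Its brightest gene, Des, is also in the list of sarcomere and Z-disc genes and rose 1.37-fold over the 4 control injections. Only 2 of the 11, Des and Cspg4, had all 3 arrays above the other 9, and 0 had them below. The list's median 4-injection effect was -0.01, so the sum does not show a rise of the list as a whole. Of the neutrophil, T cell, B cell, mast cell and adipocyte markers, 9 of 10, 5 of 7, 5 of 5, 5 of 6 and 5 of 5 were under a log2 value of 5 on all 12 arrays. The atrial gene Myl7, an atrial myosin light chain, ran from 4.03 to 8.93 on the MerCreMer arrays, with high and low arrays in both groups that received 1 injection. It was 8.11 to 8.60 after 4 control injections and 4.07 to 5.04 after 4 tamoxifen injections, and its interaction of -4.68 was not called (adjusted p = 0.199, limma). In the same list Myl4 read 8.99 to 9.45 and 6.73 to 7.32 in these 2 groups, and Dkk3 6.19 to 6.81 and 5.23 to 5.84. Of 8 tested atrial and conduction markers 7 had a negative interaction and 1 a positive one. Their median was -0.36, or -0.57 without replicate 1 and -0.23 without replicate 3.

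**Figure D4:**
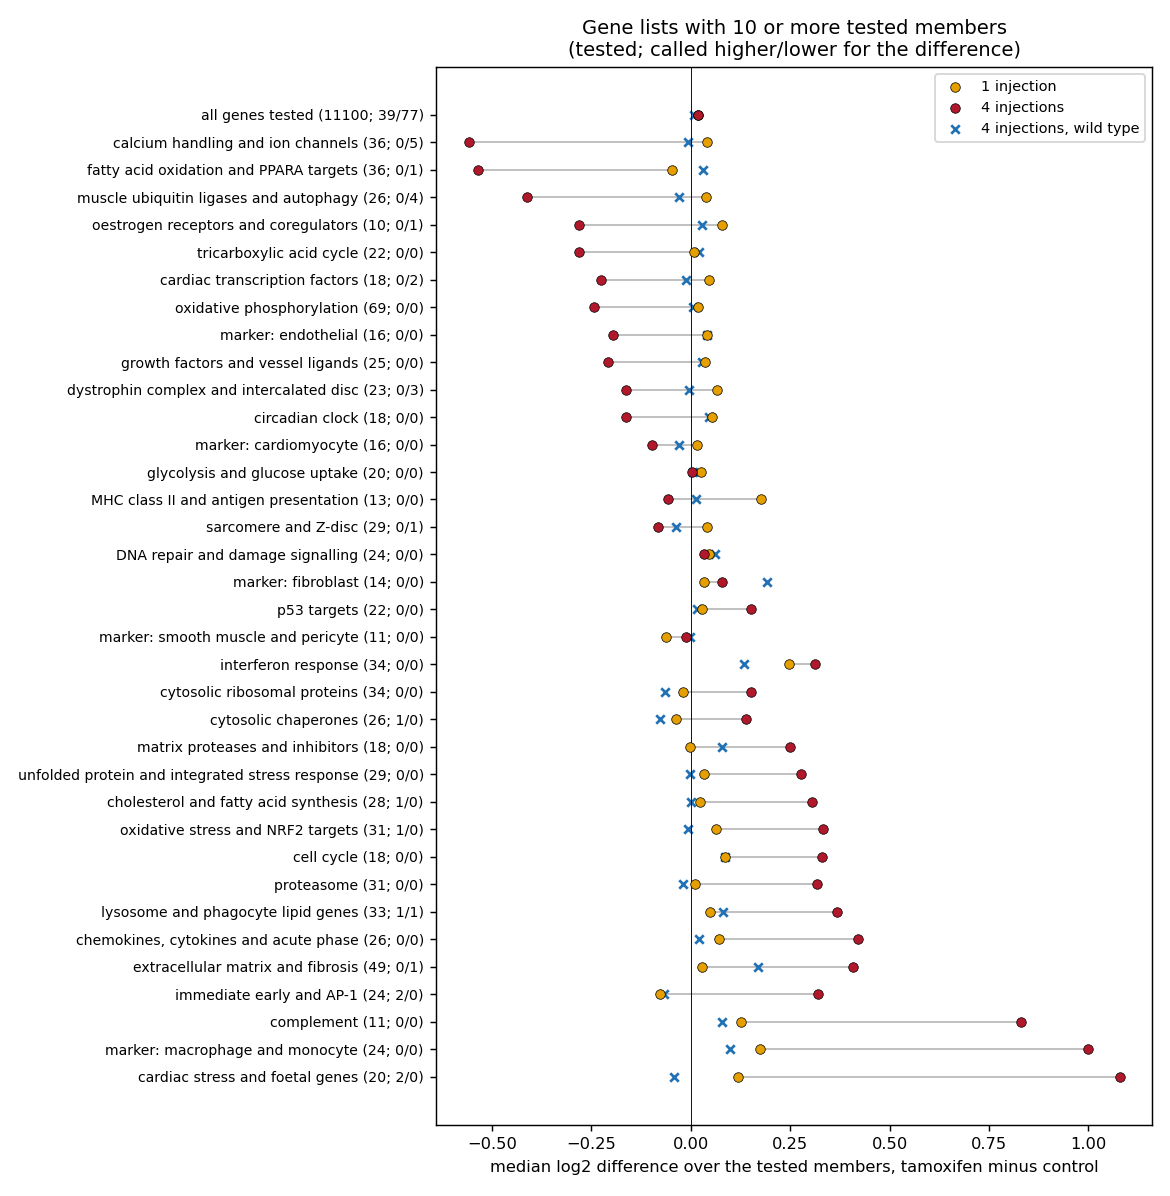
Median log2 difference, tamoxifen minus control, over the tested members of each gene list with 10 or more tested members, for 1 injection and 4 injections in MerCreMer mice (3 arrays per group) and 4 injections in wild-type mice (crosses). Lists are ordered by their median interaction and labelled with the number tested and the numbers called higher and lower for it; the 1-injection medians lie between -0.08 and 0.25.

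The lists of energy metabolism in mitochondria had negative medians. All 69 tested genes of oxidative phosphorylation had a negative interaction, with a median of -0.24, and 0 were called. Of the 69, 7 had an unadjusted p under 0.05, where all genes gave 15.2% in either direction. The median relative to the MerCreMer controls was -0.02, -0.07 and -0.60 on replicates 1 to 3 after 4 tamoxifen injections, so most of it came from 1 array, and the list's median was -0.08 without replicate 3. The 22 genes of the tricarboxylic acid cycle likewise had a median of -0.26, which was -0.08 without that array and -0.42 without replicate 1. For the 36 genes of lipid oxidation, PPARA targets included, the values were -0.51 and -0.17.

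Proteasome genes were even across arrays. All 31 tested subunits had a positive interaction, with a median of 0.31 and 0.26 without replicate 3, and 0 were called. Of the 31, 15 had an unadjusted p under 0.05, where all genes gave 15.2% in either direction. For 25 of the 31 the arrays after 4 tamoxifen injections lay above the other 9, where 10.2% of all genes did. The medians on those 3 arrays were 0.30, 0.27 and 0.44, and those of the 3 arrays after 1 tamoxifen injection ran from -0.04 to 0.04. Psmd14, the deubiquitinase of the regulatory particle, read 8.44, 8.50 and 8.88 against 7.98 to 8.29 (0.60, adjusted p = 0.095). The largest interaction was that of Psma5, a core subunit, at 0.72.

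Further lists had 0 called genes and are given by their median interaction. All of these medians moved by over 1.5 times when 1 array was left out. For 26 genes of chemokines, cytokines and the acute phase it was 0.32, and 0.19 without replicate 3. For 29 genes of the unfolded protein and integrated stress response it was 0.22, with 0.03 without replicate 3 and 0.35 without replicate 2. For 18 cell cycle genes it was 0.28, and 0.09 without replicate 3. For 34 cytosolic ribosomal proteins it was 0.15, with 0.07 without replicate 3 and 0.24 without replicate 2. These 4 lists had positive medians that were smaller without replicate 3. For 20 genes of glycolysis and glucose uptake it was -0.09, and -0.04 without replicate 3. For 18 clock genes it was -0.18, with -0.06 without replicate 3 and -0.32 without replicate 2. For 25 growth factors and vessel ligands it was -0.22, and -0.15 without replicate 3, and for 13 genes of MHC class II it was -0.09, with -0.17 without replicate 3, -0.22 without replicate 1 and -0.06 without replicate 2. In the list of lysosomal and phagocyte lipid genes, 1 of 33 was higher (Gpnmb) and 1 lower, Mitf, a transcription factor of lysosomal and pigment cell genes (-1.32). Over all genes tested 0.351% were called higher and 0.694% lower. The median of the list was 0.31, and 0.18 without replicate 3.

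Genes of DNA damage did not pass the test. Of 24 tested genes of DNA repair and damage signalling 0 were called and 0 had an unadjusted p under 0.05. Their median interaction of -0.01 changed sign in 5 of the 26 alternative settings. That median was -0.08 without replicate 1, -0.03 without replicate 2 and 0.02 without replicate 3. Of 22 tested p53 targets 0 were called, with 4 at an unadjusted p under 0.05 (15.2% of all genes tested), 3 of them higher, and a median of 0.09, or 0.06 without replicate 1. Mdm2, the ubiquitin ligase of p53, read 7.74, 7.58 and 7.57 after 4 tamoxifen injections and 7.22 to 7.49 on the other 9 arrays (0.40, adjusted p = 0.166). Ccng1, another p53 target, had -0.14 (adjusted p = 0.735). The sizes that 3 arrays per group could resolve vary by gene: the median SE of the interaction over all genes was 0.176.

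The probe set of Esr1, the oestrogen receptor gene, read 7.20 to 7.75 on the 12 MerCreMer arrays and 5.47 to 6.80 on the 9 wild-type arrays, where it was 5.47 to 6.08 after 4 control and 6.12 to 6.80 after 4 tamoxifen injections. The MerCreMer fusion contains sequence of an oestrogen receptor, and which part of the transcript this probe set covers is not given in the sources used here. Its level was 7.68 to 7.72 after 1 tamoxifen injection and 7.20 to 7.62 after 4, and the interaction of -0.26 was not called (adjusted p = 0.502). The 1 and 4 control groups, at 7.52 to 7.75 and 7.39 to 7.68, overlapped with both.

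A response to 1 injection alone was sought in genes and lists. The interferon response list had a median 1-injection effect of 0.25, the largest of the lists with 10 or more tested members, against 0.02 over all genes tested. Of its 34 tested genes 31 had a positive effect and 10 had an unadjusted p under 0.05, all higher, where all genes gave 1.71% in either direction, and 0 were called. The 10 were Gbp3, Ifi35, Ifih1, Ifit2, Irf1, Irgm1, Lgals3bp, Parp9, Rtp4 and Usp18. The list's median on replicates 1 to 3 was 0.13, 0.25 and 0.32 after 1 tamoxifen injection, above the 6 MerCreMer control arrays, at -0.04 to 0.04. After 4 tamoxifen injections it was 0.44, 0.09 and 0.47. In wild-type mice it was -0.06, 0.36 and 0.15 after 4 tamoxifen injections and -0.19 to 0.10 on the 6 control arrays, so these groups overlapped. The interaction of the list had a median of 0.13, which was 0.02 without replicate 3, 0.03 without replicate 1 and 0.27 without replicate 2, and it changed sign in 1 of the 26 alternative settings.

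No gene was called after 1 injection, but some alternative fits called 1 to 4 genes, and the 3 called when each group had its own spread are described here. Ptprn2, a phosphatase-like protein of secretory granules, read 5.97, 5.85 and 5.92 after 1 tamoxifen injection and 4.63 to 4.93 after 1 control injection. It read 4.56 to 4.84 after 4 control and 5.58, 4.78 and 4.80 after 4 tamoxifen injections, so only 1 of those 3 arrays was raised. Its 1-injection effect was 1.18 (adjusted p = 0.00278 with group weights, 0.272 without, limma), and this gene was the lowest in unadjusted p of the comparison. Ftl1, the ferritin light chain, had a 1-injection effect of 1.08, but its 1 control arrays, at 4.69 to 4.91, were also below the 4 control arrays, at 5.57 to 6.12, so the control values themselves did not overlap (control difference 0.96, not called). Gm12250, the third, had 1.09 and read 5.26, 5.51 and 6.04 against 4.27 to 4.72. These 3 genes were chosen after their values were seen.

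The effects of 1 and 4 injections had opposite signs in 85 of the 116 genes, and in those and the other called genes the 1-injection effect ran from -0.23 to 0.47. Of the 116 genes 1 had a 1-injection effect beyond 0.3 on the log2 scale with the opposite sign of its 4-injection effect: Cpxm2, a carboxypeptidase-like secreted protein, with 0.47 after 1 and -0.83 after 4 injections (interaction -1.30, adjusted p = 0.0341). Its values overlapped between groups, at 7.62, 6.82 and 6.44 after 1 tamoxifen against 6.28 to 6.87 after 1 control, and 6.47, 5.81 and 5.22 after 4 tamoxifen against 6.30 to 7.27 after 4 control injections. Small positive 1-injection effects were found in 70 of the 77 lower genes, with a median of 0.07, but the interaction subtracts that effect, so the choice of genes in part fixes its sign. Among the 383 genes called lower by 4 injections alone, a choice that does not use the 1-injection arrays, the median 1-injection effect was 0.04, and over all genes it was 0.02.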

How the data were processed

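Total RNA of the left ventricle was measured on 1 Affymetrix array per sample. The authors deposited log2 values for 34760 probe sets on 21 arrays, and the submitters' processing notes name RMA. RMA removes background, quantile normalises the arrays, which removes shifts shared by most genes, and summarises probes. Values were used as deposited. The number of arrays limits the precision. The labels number the replicates but do not say that they are separate animals, so p values measure the spread between these samples.

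Probe sets with 1 gene in the platform annotation (21640) gave 19937 genes; 99.6% of their Entrez identifiers matched RefSeq (GRCm38.p6). Where a gene had several, the one brightest on average across the 12 MerCreMer arrays was kept. The 11100 genes with a log2 value of 5 or more on at least 3 of the 12 arrays were tested, 11084 of them with a genomic span. Group means (4) plus a term for sex were fitted with limma 3.58.1 in R 4.3.3 (7 residual and 3.57 prior degrees of freedom), with Benjamini-Hochberg adjustment over all genes tested and a threshold of 0.05. The fit was tested on simulated data. Wild-type effects came from the same model over all 21 arrays. Summed marker levels are sums of 2 to the power of the log2 values.

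Named genes were the 12 highest and 12 lowest interactions among called genes, up to 3 called members of each list or else its member of smallest p, called genes with opposite effects, and a panel; others are named as examples or exceptions. The comparison, the gene lists and the panel were chosen with earlier results of these data known, and the motif search, array sets and 1-injection examples after seeing these values. Alternatives covered sex, replicate numbers, weights, scaling, filters, probe sets and each array left out.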

Additional observations from a re-analysis of the deposited data

Results flagged for a closer look

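The effect of tamoxifen differed between 4 and 1 injections, by the test of the interaction itself in limma, for 116 genes. The 12 largest positive values, on the log2 scale, were 2.83 for Tnnt1, 2.27 for Gpnmb, 2.22 for Hmox1, 1.91 for Atf3, 1.57 for Mybpc2, 1.56 for Klhl40, 1.53 for Gas2l3, 1.52 for Hspa1l, 1.46 for Ndnf, 1.45 for Olfml2b, 1.40 for Scd2 and 1.27 for Ankrd45. The 12 most negative were -2.59 for Asb15, -2.40 for Cacna1c, -2.38 for Dmd, -2.13 for Fgf13, -2.05 for Fhod3, -2.04 for Ctnna3, -2.03 for B3galt2, -1.84 for Itgb6, -1.61 for Slc8a1, -1.55 for Erbb4, -1.53 for Pde3a and -1.49 for Asb5. All 24 had the 3 arrays after 4 tamoxifen injections on 1 side of the other 9 MerCreMer arrays. Over all genes tested 10.2% had them above and 5.93% below, and the choice of the 24 by their interaction favours such a split. Gpnmb reached the level filter on those 3 arrays only. No group held more than 3 of the 12 arrays, so arrays were not screened for single outlying values.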

How the results depend on the processing

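The 116 genes of the interaction kept their sign under all 26 settings, while their number did not hold. Its count was 53 with the replicate block (52 of them among the 116), 658 in a fit of all 21 arrays, 4 on female arrays only, 202 with group variances as weights, 626 with array weights and 38 with no filter on dim genes. In the same order without the block, the 985 genes of the 4-injection effect became 2653, 82, 537, 1510 and 637, and the 847 genes of the difference between tamoxifen groups became 2322, 105, 438, 1241 and 528. The 0 genes of the 1-injection effect became 1 with all 21 arrays, 3 with group variances and 4 with array weights, and the 0 of the control difference became 1 with array weights. Leaving out single arrays gave 17 to 486 genes for the interaction, 272 (without 4 control replicate 1) to 2270 (without 4 tamoxifen replicate 2) for the 4-injection effect, 0 to 1 for the 1-injection effect and 290 to 2004 for the difference between tamoxifen groups. The causes were not tested. The leave-one-out and female fits also had fewer arrays, and the fit with no filter tested more genes. The fits with no sex covariate, the robust prior, the quantile and median scalings, the stricter filter and averaged probe sets kept all 5 counts within 1.5 times, as did the replicate block for the other 4.

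The labels do not say whether the replicate numbers pair the samples. Same-numbered arrays of different groups correlated in their deviations at -0.08 to 0.37 (median 0.15), with 10 of 18 pairs over 0.1. Arrays of unlike number had a median of -0.05, with 5 of 36 pairs over 0.1. Best correlation with the own number was found for 7 of 12 arrays, so some pairing by number remains possible. Of 35 called genes picked by the naming rule, 21 kept the call with the replicate block and 14 lost it. Tnnt1, Asb15, Dmd, Ctnna3 and Atf3 were among those that lost it. A probe set with no gene name read 11.22 to 11.29 on 1 array of each group and 11.47 to 11.52 on the other 8, a division the labels do not name, found after seeing the data. With it as a block, in place of the term for sex, the interaction called 64 genes. Within the 8 arrays, fitted without a term for sex, the counts were 7 for the interaction and 240 for the 4-injection effect. They were 1 for the 1-injection effect and 220 for the difference between tamoxifen groups. On the other 4 arrays all 77 lower and all 39 higher genes had the same sign (medians -0.94 and 0.86). These 4 arrays were among the 12 from which the genes were called, so the shared sign is not separate support.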
